A study of Mus musculus with 10 samples.

Results

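The 16 regions described here are the differentially methylated regions (DMRs) that the authors listed between peripheral lymph node (pLN) stroma of specific pathogen-free (SPF) mice and of germ-free (GF) mice. They are all the regions of that deposited table, out of 2132 DMRs in 4 tables. For each of their 99 CpGs, the unsmoothed methylation, the percentage of reads that kept a cytosine after bisulfite treatment, was compared between 3 pLN SPF and 2 pLN GF libraries. The DMRs of the other tables, 2116 DMRs merged into 1586 regions, gave the spread between the pLN libraries. Each region is named after the gene with the nearest transcription start site (TSS) in the authors' tables, which can be far away.

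All libraries came from BALB/c mice and from non-endothelial stromal cells sorted as podoplanin-positive cells negative for CD45 and CD31, and were made by whole-genome bisulfite sequencing, so the sort could not be checked against marker expression here. SPF mice were 7 to 12 weeks old and GF mice 6 to 10 weeks old. Per the methods of the study, the GF colony was started by caesarean section elsewhere than the SPF colony, and its mice lived in isolators. The methods list the SPF BALB/c line as CD90.1 and the GF mice as BALB/c without that allele named. The labels do not name the facility behind a library, so housing, line, colony and facility cannot be told apart. The authors left out 1 pLN GF replicate as an outlier, and it was not used here. The pLN of the study are skin-draining nodes, although the tissue label of these libraries names a skin-draining mesenteric node. Per the reporting summary of the study, replicates for bulk sequencing came from independent experiments, although this is not stated library by library. No label says whether replicates came from separate mice or pools. All p-values therefore measure the spread between these libraries, which may not be that between single mice. The same comparison in mesenteric lymph nodes (mLN), with 3 SPF and 2 GF libraries, played no part in the choice of the 16 regions.

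Stromal cells form the scaffold of the lymph node, guide lymphocytes with chemokines and support them with survival factors. Methylation of cytosine in CpG dinucleotides is copied at cell division and is usually low at active, CpG-rich promoters and high elsewhere. GF mice lack living microorganisms, so the comparison with SPF mice asks whether microbial colonization leaves a mark on the methylome of these cells. The skin-draining nodes are a site remote from the gut, where the largest microbial community resides.

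Short DMRs rest on few CpGs, which is visible in their sequences. Of the 16 DMRs, 10 (62.5%) held 3 or 4 CpGs, whereas 278 of the 1586 other regions (17.5%) did, and the medians were 4 and 11.5 CpGs. The following sequences of the GRCm38 forward strand (RefSeq assembly GRCm38.p6) run from the first to the last CpG of a DMR, except where stated, with each CpG in capitals. They show how densely or sparsely the CpGs lie, and belong to the DMRs to which the results return. For Fam63a (Mindy1 in GENCODE) the end of the DMR is shown, which is intronic in the protein-coding transcripts and follows their first exon.
Fam63a intronic end, chr3:95283626-95283792: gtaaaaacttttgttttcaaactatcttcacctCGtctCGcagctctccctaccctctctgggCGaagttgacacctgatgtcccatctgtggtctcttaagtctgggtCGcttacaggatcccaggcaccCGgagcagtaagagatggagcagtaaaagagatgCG
Zfp872, chr9:22188595-22188653: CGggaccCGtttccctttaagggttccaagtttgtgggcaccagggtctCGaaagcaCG
1700110I01Rik, chr14:3272490-3272611: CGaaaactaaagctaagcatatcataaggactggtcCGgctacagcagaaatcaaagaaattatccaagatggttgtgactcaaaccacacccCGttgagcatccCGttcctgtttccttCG
Nploc4, chr11:120438257-120438289: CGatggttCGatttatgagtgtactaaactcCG
BC021614, chr19:4066319-4066542: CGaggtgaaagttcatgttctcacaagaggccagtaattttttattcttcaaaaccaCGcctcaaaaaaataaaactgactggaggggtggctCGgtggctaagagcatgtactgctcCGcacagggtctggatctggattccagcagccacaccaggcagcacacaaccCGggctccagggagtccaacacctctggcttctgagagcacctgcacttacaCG
Dclre1c, chr2:3425028-3425185: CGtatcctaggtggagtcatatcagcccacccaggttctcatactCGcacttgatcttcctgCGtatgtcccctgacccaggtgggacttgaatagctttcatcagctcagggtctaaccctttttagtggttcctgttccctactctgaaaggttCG
Tex24, chr8:27303773-27303860: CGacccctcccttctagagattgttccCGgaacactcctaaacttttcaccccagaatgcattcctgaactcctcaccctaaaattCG

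In the unsmoothed values, 8 DMRs were more methylated and 8 less methylated in SPF than in GF mice, and all 16 kept the authors' direction. The 8 more methylated DMRs averaged 77.6% ± 0.774 (SD, n = 3) in SPF libraries, against 65.0% ± 1.04 (SD, n = 2) in GF libraries. The 8 less methylated DMRs averaged 41.3% ± 1.42 (SD, n = 3) and 58.6% ± 0.264 (SD, n = 2), in the same order. These libraries were the ones on which the DMRs had been chosen, so the values are a description and no test was made of them. Single differences ranged from 2.05 to 29.2 percentage points, with a median of 14.3 points, and 5 DMRs reached 20 points.

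In 10 of the 16 DMRs the SPF and GF libraries did not overlap, where 24.4% of the other regions had no overlap between the same libraries. The choice of the DMRs on this contrast raises their count, so nothing is read from the gap. By CpG, 48 of the 99 CpGs (48.5%) had no overlap, against 17.2% of the CpGs of the other regions. The Fam63a DMR supplied 30 of the 48, and among the 63 CpGs of the remaining 15 DMRs the count was 18 (28.6%). A difference in the authors' direction was present at 81 of the 99 CpGs, and 6 CpGs had no difference.

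**Figure D1:**
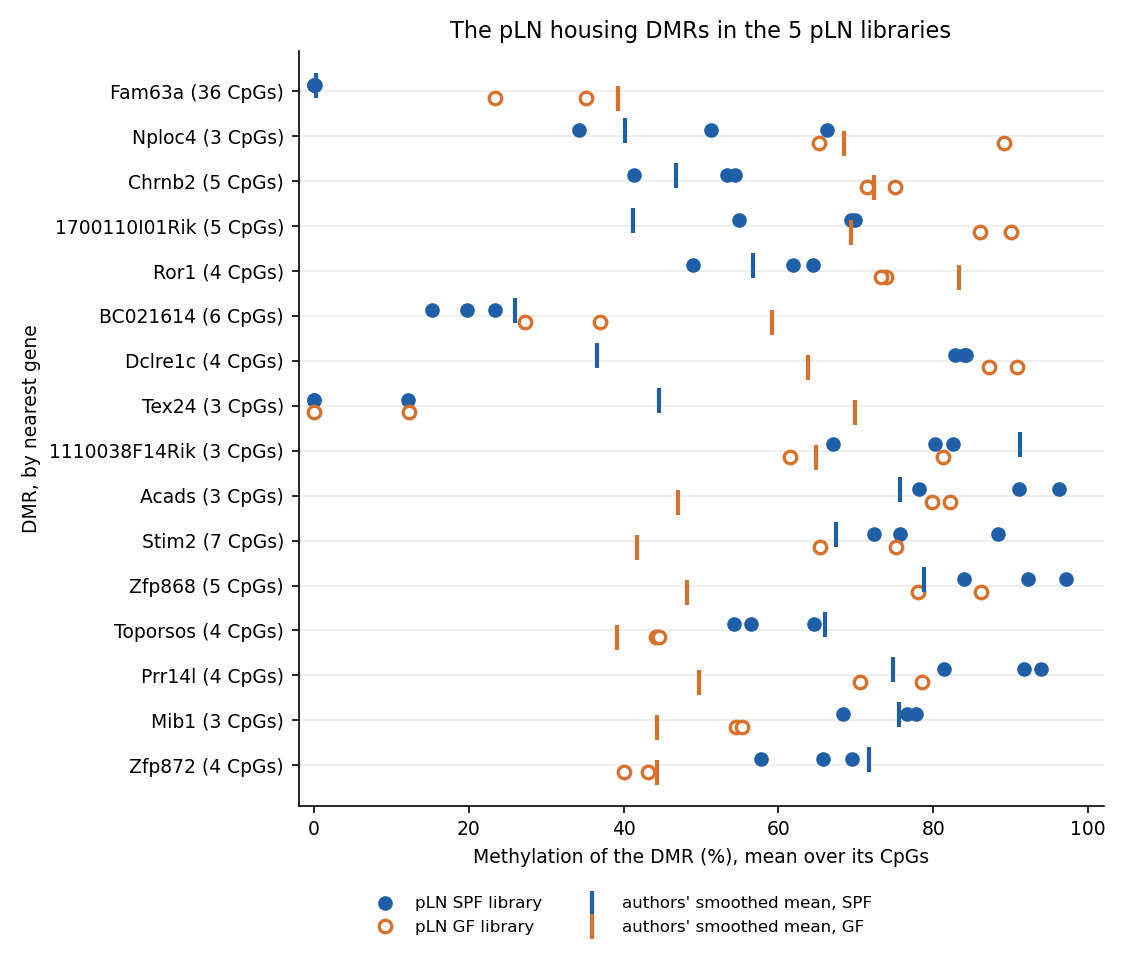
Methylation of each of the 16 pLN housing DMRs in percent (horizontal axis), 1 row per DMR by nearest gene with its number of CpGs. Filled points are the 3 pLN SPF libraries, open points the 2 pLN GF libraries and vertical ticks the authors' smoothed group means. At Fam63a the SPF libraries lie at or near 0% and the GF libraries at 35.1% and 23.4%, whereas at Tex24 and Dclre1c the ticks lie far from all points.

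The largest difference lay at Fam63a (MINDY1), a deubiquitinase that trims lysine-48-linked ubiquitin chains. The DMR spans chromosome 3, 95283300 to 95283791 (36 CpGs), and holds the TSS that the authors named as nearest. This TSS belongs to a short non-coding transcript inside the gene, so that CpGs upstream of it still lie within the first, untranslated exon of the protein-coding transcripts (95282944 to 95283625), which holds 30 of the 36 CpGs. The other 6 lie in the intron that follows, which a further non-coding transcript keeps as exon. Mean methylation was 0%, 0.185% and 0% in pLN SPF replicates 1 to 3 and 35.1% and 23.4% in pLN GF replicates 1 and 2. All SPF libraries were thus close to unmethylated and lay below both GF libraries.

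CpG by CpG, the Fam63a difference covered a block with a sharp end. At the 30 CpGs from 301 bases upstream of this TSS to its first base downstream, the 3 SPF libraries read 0% at every CpG and both GF libraries were above 0% at every CpG, so that SPF and GF did not overlap at any of the 30. In GF replicate 1 these 30 CpGs ranged from 10% to 66.7%, and in GF replicate 2 from 8.33% to 50%. The level declined towards the TSS. Over the first 10 CpGs the GF replicates averaged 60.4% and 33.1%, over CpGs 11 to 20 they averaged 44.7% and 32.7%, and over CpGs 21 to 30 they averaged 21.3% and 16.8%. The GF replicates therefore differed most from each other at the upstream end. At the last 6 CpGs, 58 to 190 bases downstream and within the intronic sequence printed above, both GF replicates and all SPF replicates averaged between 0% and 2.56%.

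**Figure D2:**
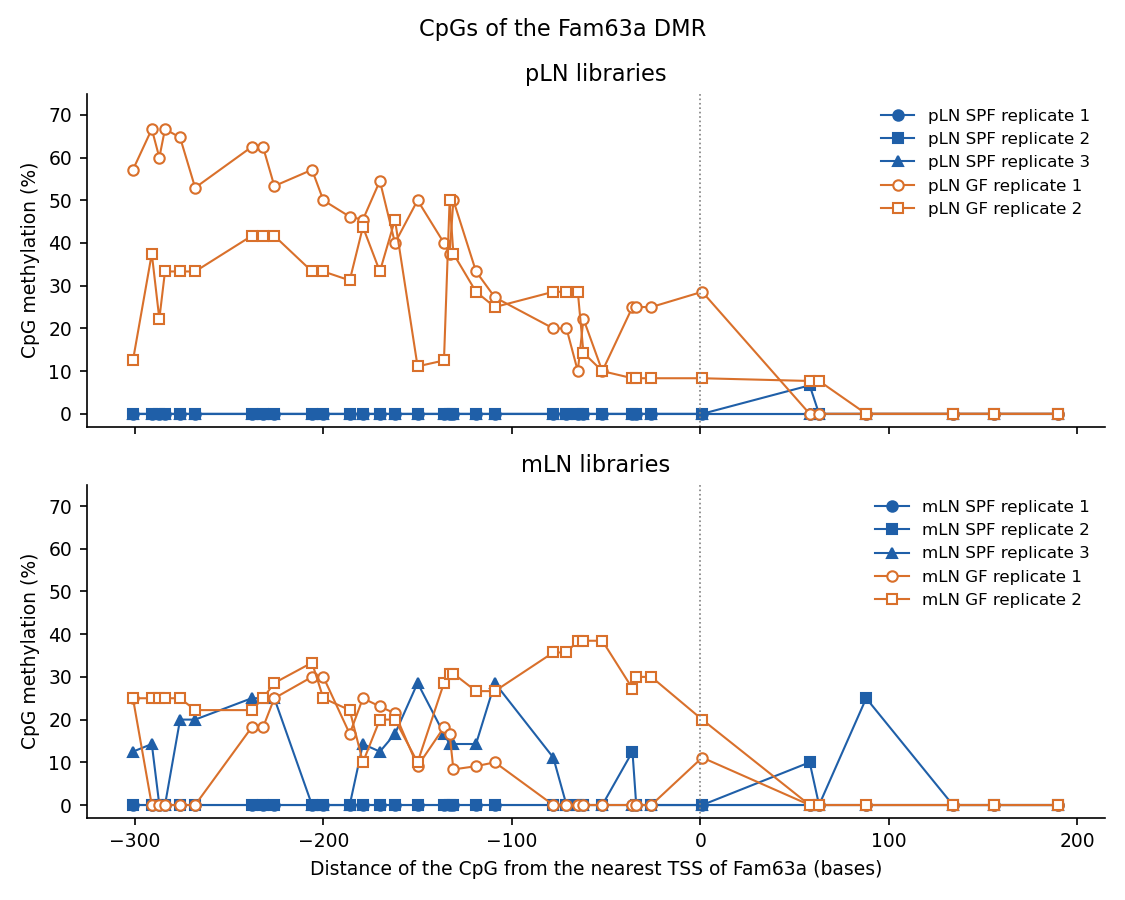
Methylation of each of the 36 CpGs of the Fam63a DMR in percent (vertical axis) against the distance from the nearest TSS in bases (horizontal axis, dotted line at 0), for the 5 pLN libraries above and the 5 mLN libraries below; each line is 1 library. In pLN the SPF lines stay at 0% upstream of the TSS while both GF lines lie between 8.33% and 66.7%, and in mLN SPF replicate 3 runs among the GF lines.

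The mLN libraries, which had not been used to choose this DMR, gave 0%, 1.32% and 8.69% in SPF replicates 1 to 3 and 8.75% and 22.3% in GF replicates 1 and 2. SPF and GF did not overlap, but SPF replicate 3 and GF replicate 1 were only 0.0554 points apart. Of the 36 CpGs, 30 had a lower mean in mLN SPF than in mLN GF, while mLN GF replicate 1 read 0% at 19 of them, as many as mLN SPF replicate 3. The mLN difference was -12.2 points (SE 5.68, limma unadjusted p = 0.0631, adjusted p = 0.774 over 1602 regions), so it did not pass the test.

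Among the DMRs near genes of ubiquitin-dependent processes, Nploc4 encodes a cofactor of the p97 ATPase, which extracts ubiquitinated proteins. Its DMR (chromosome 11, 3 CpGs, upstream of the TSS and intergenic) had 51.3%, 34.2% and 66.2% in pLN SPF and 65.2% and 89.2% in pLN GF. The mean difference of -26.6 points was the second in size, yet SPF replicate 3 exceeded GF replicate 1, and the pooled SD was 16.3 points. Mib1, an E3 ligase that activates Notch ligands, had 68.4%, 76.7% and 77.8% in SPF and 54.6% and 55.2% in GF at 3 CpGs upstream of its TSS. The libraries did not overlap over the DMR, but they overlapped at each of its 3 CpGs taken singly. The DMR near Toporsos lies in an intron of Topors, which encodes a SUMO and ubiquitin ligase, and had 56.4%, 54.3% and 64.6% in SPF and 44.2% and 44.5% in GF, again with no CpG at which the libraries were apart.

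Signalling and membrane proteins were represented by Ror1, Stim2 and Chrnb2. Ror1 is a receptor of the Wnt family, and its upstream DMR (chromosome 4, 4 CpGs) had 49.0%, 64.4% and 61.9% in SPF against 74.0% and 73.3% in GF. All SPF libraries were lower, and 3 of the 4 CpGs shared this direction. Chrnb2, a nicotinic acetylcholine receptor subunit, had 41.4%, 54.4% and 53.3% in SPF and 75% and 71.5% in GF, with all 5 CpGs lower in SPF on average but 1 of them without overlap. Stim2, a calcium sensor of the endoplasmic reticulum, had 88.4%, 72.3% and 75.8% in SPF and 75.2% and 65.4% in GF. These values overlapped, and the difference of 8.56 points was about the pooled SD of 7.98 points. Only the CpG nearest to the Stim2 gene separated the libraries, with 50%, 57.1% and 18.2% in SPF and 11.1% and 8.33% in GF.

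The DMRs near zinc-finger and DNA repair genes differed in how far they rested on single CpGs. Zfp872 encodes a zinc-finger protein, and its intronic DMR of 58 bases with 4 CpGs had 69.5%, 65.7% and 57.7% in pLN SPF and 40.0% and 43.1% in pLN GF. All 4 CpGs were higher in SPF, and at the 2 CpGs nearest to the TSS the libraries did not overlap. Zfp868, a further zinc-finger gene whose DMR lies 28008 bases away, had 92.2%, 84.0% and 97.1% in SPF and 86.1% and 78.1% in GF, with overlap. Dclre1c encodes Artemis, a nuclease of DNA end joining, and its intronic DMR had 82.9%, 84.2% and 83.9% in SPF and 90.8% and 87.3% in GF. This separation was complete but measured only 5.38 points, a size reached by 625 of the 1586 other regions (39.4%). One of its 4 CpGs ran the other way, with all SPF libraries above 80% and both GF libraries at 80%.

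Among the remaining DMRs, 1700110I01Rik, a non-coding RNA gene, had 69.9%, 69.4% and 54.9% in pLN SPF and 90.0% and 86.0% in pLN GF at 5 intronic CpGs. BC021614 had 23.4%, 19.8% and 15.3% in SPF and 37.0% and 27.3% in GF, and its first CpG read 0% in all SPF libraries and 25% and 14.3% in GF. Prr14l had 93.9%, 91.7% and 81.4% in SPF and 70.6% and 78.5% in GF. In these 3 DMRs the groups did not overlap. Acads, the short-chain acyl-CoA dehydrogenase of fatty acid oxidation, and 1110038F14Rik overlapped between groups and had the authors' direction at 1 of 3 CpGs each. Their difference was 7.525 and 5.21 points, each below its own pooled SD. At Tex24, in a repeat 40533 bases from the TSS, the libraries read 0%, 12.2% and 0% in SPF and 0% and 12.2% in GF, so no housing difference was visible.

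The authors' deposited group means come from smoothed methylation, in which each CpG borrows from its neighbours, and for several short DMRs they lay far from the values of the CpGs inside. At Tex24 the authors' smoothed means were 44.6% in SPF and 69.9% in GF, whereas no pLN library exceeded 12.2%. At Dclre1c they were 36.5% and 63.8%, whereas no pLN library was below 82.9%. In 8 of the 16 DMRs (50%) the smoothed mean of a group differed from the unsmoothed mean by over 20 points, as in 7 of the 17 mLN housing DMRs (41.2%), against 84 of 806 DMRs between mLN and pLN in SPF mice (10.4%) and 243 of 1293 in GF mice (18.8%), the SPF and GF location tables. The median gap was 10.998 points for pLN housing, 9.78 for mLN housing, 3.92 for SPF location and 6.53 for GF location. In 7 of the 16 DMRs the unsmoothed difference was under 50% of the smoothed one. The unsmoothed means also cover more CpGs than the authors counted (99 against 84 in all). In the 8 DMRs with equal numbers, Tex24 and Stim2 among them, the gap was over 20 points in 3, and in the 8 with unequal numbers in 5; the part of the added CpGs in the gap was not tested further. The DMR closest to the authors' limit of 25 points was Prr14l with 25.1 points in their smoothed values; no region just outside the limit was analysed here.

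The housing difference of all regions set the scale for these sizes, although the 16 had been chosen for theirs. The other regions were chosen for location or for housing in mLN. The location tables used the same pLN libraries, so this scale is not free of a choice on them either. By limma over all 1602 regions in the 5 pLN libraries, 0 regions passed an adjusted p of 0.05 (0%), and the smallest adjusted p was 0.142. An unadjusted limma p under 0.05 occurred in 94 regions, 10 of them among the 16, where 80.1 are expected at random. By CpG, limma called 0 of 23963 CpGs (0%), with a smallest adjusted p of 0.656. Of these CpGs, 1817 had an unadjusted p under 0.05, where 1198 are expected at random, although neighbouring CpGs are not independent. The 1 call under any alternative was the Fam63a DMR, on the logit scale, with an adjusted p of 0.00434. This scale weights values close to 0%, and Fam63a had been chosen on these libraries, so the call is not independent evidence.

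Among the other regions the median absolute difference was 4.29 points and the median pooled SD 5.15 points. Differences of at least 20 points occurred in 17 of 1586 (1.07%), and of at least 10 points in 210 (13.2%). Only 3 other regions had a difference as large as that of Fam63a and 4 one as large as that of Nploc4, while 1179 of 1586 (74.3%) matched or exceeded Tex24. The smallest p-value of any region belonged to Lmna, which encodes the nuclear lamins A and C. This region of 3 CpGs, from the GF location table, had 58.6%, 54.8% and 51.4% in pLN SPF and 88.9% and 85.9% in pLN GF (limma adjusted p = 0.142).

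The spread fell with the number of CpGs. Regions of 3 or 4 CpGs had a median pooled SD of 7.43 points, and in 5% of them the difference exceeded 17.9 points. For regions of at least 20 CpGs these values were 3.66 and 8.87 points. Against regions of their own size, 3 of the 10 DMRs with 3 or 4 CpGs, 2 of the 5 DMRs with 5 to 9 CpGs and the Fam63a DMR exceeded the size that 5% of the regions surpassed. The choice of the 16 on this contrast raises these counts, so nothing is read from them. Fam63a was the only one of the 16 with over 9 CpGs.

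**Figure D3:**
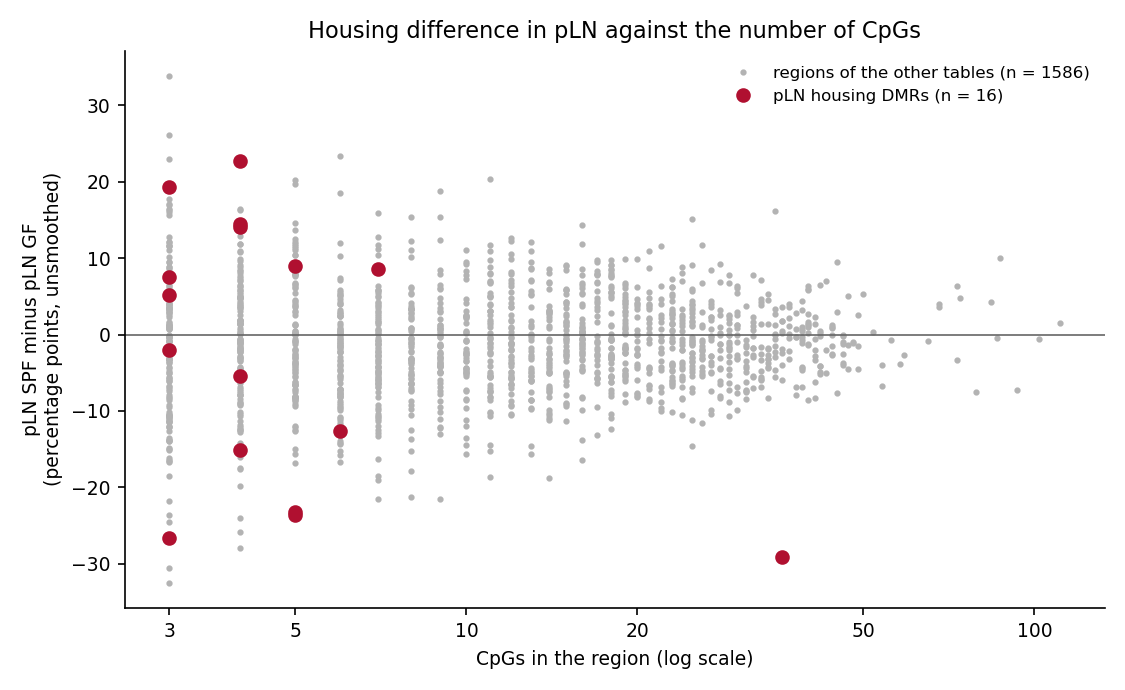
Unsmoothed difference between pLN SPF and pLN GF in percentage points (vertical axis) against the number of CpGs (horizontal axis, log scale), with grey points for the 1586 other regions and red points for the 16 pLN housing DMRs. The grey points narrow as CpGs increase, from a median pooled SD of 7.43 points at 3 or 4 CpGs to 3.66 points at 20 or more, and Fam63a stands apart at 36 CpGs and -29.2 points.

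Pairs of libraries were compared over the other regions as well. There, the mean absolute difference was 7.04 to 7.54 points in the 4 pairs of libraries with the same housing and 7.10 to 8.05 points in the 6 pairs of SPF with GF. Housing accounted for 28.0% of the sum of squares between the 5 pLN libraries, where the median over the 10 possible splits of 3 against 2 libraries was 24.4% and 1 split gave more (exact permutation p = 0.2, one-sided, the smallest possible being 0.1). These regions had been chosen for location or for housing in mLN. The location tables were called on the same pLN libraries, so these regions are not independent of a choice on pLN SPF or pLN GF. Regions found in SPF mice alone and more methylated in mLN had 39.2% in pLN SPF and 42.5% in pLN GF. Those found in GF mice alone and more methylated in mLN had 42.3% and 39.1%. Regions less methylated in mLN had 66.6% and 65.2% if found in SPF mice alone, and 59.7% and 64.5% if found in GF mice alone. This last group was the largest, with 368 of 453 regions lower in pLN SPF. The 17 mLN housing DMRs used no pLN library, and 2 of them (11.8%) separated pLN SPF from pLN GF, where 24.4% of the other regions did, with a median absolute difference of 4.73 points.

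The 16 DMRs were next followed into the mLN libraries. The authors' sign was present in 10 of 16, and the mean difference in that direction was 2.15 points, below the pooled SD of 2.65 points (exact permutation p = 0.6, two-sided, the smallest possible being 0.1). SPF and GF libraries of mLN did not overlap in 5 of the 16, 3 of them with the authors' sign (Fam63a, Stim2, Mib1) and 2 with the opposite sign (Tex24, 1700110I01Rik). In the other regions 21.4% did not overlap. Limma called 0 of the 16 in mLN, with 2 at an unadjusted p under 0.05. It called 0% of all 1602 regions, with 107 at an unadjusted p under 0.05, where 80.1 are expected at random. The logit scale called 1 region that is not among the 16, nearest to Dnm1 and named after its value was seen.

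At 1700110I01Rik the nodes differed in direction. Methylation was 56.7%, 59.1% and 58.0% in mLN SPF and 33.4% and 43.5% in mLN GF, so all SPF libraries were higher in mLN, whereas all were lower in pLN. The differences were 19.5 points in mLN (SE 4.92, limma unadjusted p = 0.00374, adjusted p = 0.396) and -23.3 points in pLN. The interaction of location and housing contains the pLN difference on which this DMR was chosen. It had an adjusted p of 0.212 by limma here, and 0 of the 1602 regions passed (141 at an unadjusted p under 0.05, with 80.1 expected at random). This DMR and that of Zfp868 are among the 16 through the pLN housing table alone, but each overlaps a DMR that the authors also listed between pLN GF and mLN GF.

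At Stim2 the difference in pLN minus that in mLN was -5.53 points (SE 8.90), which did not pass the test of the interaction (limma adjusted p = 0.859). Its mLN libraries had 82.2%, 66.6% and 75.3% in SPF and 55.7% and 65.5% in GF, a difference of 14.1 points (SE 5.97, limma adjusted p = 0.729), and 6 of its 7 CpGs had the authors' sign there. Mib1 had 76.3%, 60.8% and 61.4% in mLN SPF and 58.8% and 55.0% in mLN GF, with the authors' sign at all 3 CpGs. At Zfp872, with the largest positive difference in pLN, the mLN GF replicates read 95.8% and 36.1%, and the mLN difference of -6.99 points was far below its pooled SD of 31.1 points.

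**Figure D4:**
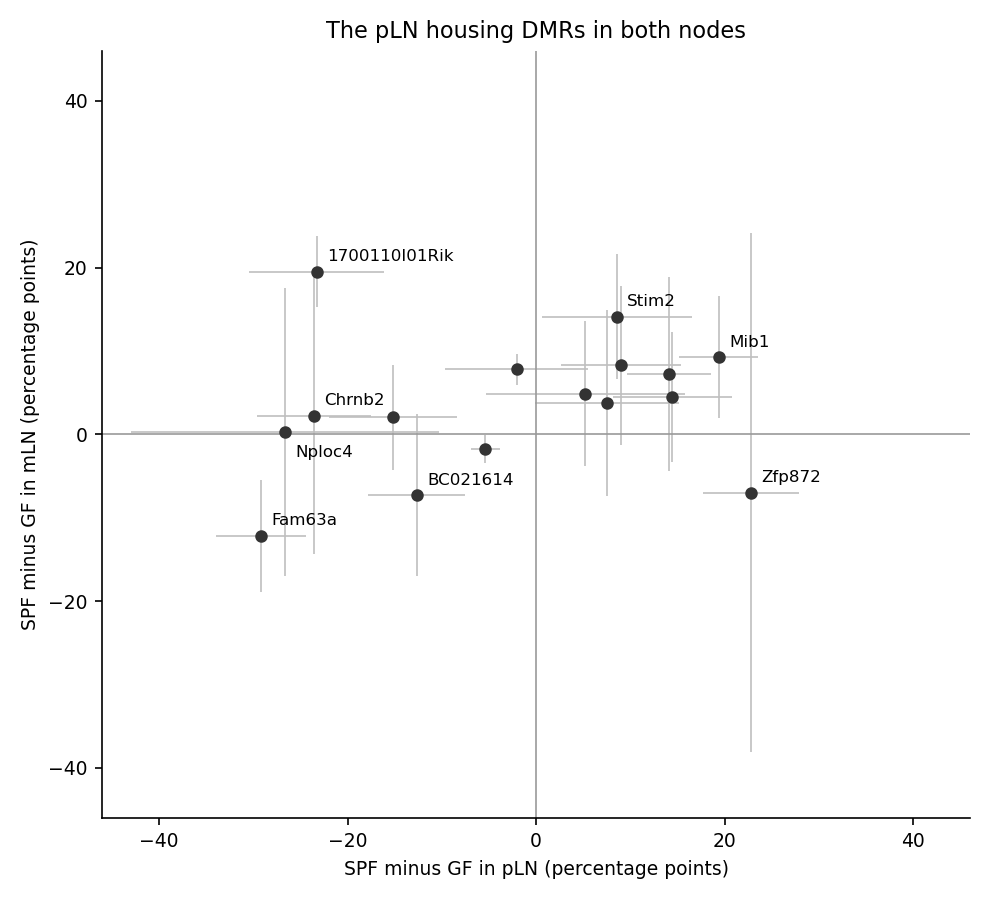
SPF minus GF difference of the 16 DMRs in percentage points in pLN (horizontal axis) against mLN (vertical axis); bars are the pooled SD between replicates in each node. 1700110I01Rik lies at -23.3 points in pLN and 19.5 points in mLN, and most others lie closer to 0 in mLN than in pLN.

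The 16 DMRs were also compared with the other regions by position, which was not itself a criterion of their choice. The calling rule did depend on the spacing of CpGs, and no share matched for the number of CpGs was made. The shares that follow are therefore a description. Of the 16, 9 (56.2%) lay within 1000 bases of the TSS named as nearest, against 184 of 1586 other regions (11.6%), and the median distances were 817 and 15919 bases. The 17 mLN housing DMRs had the same profile, with 9 within 1000 bases, a median distance of 903 bases and 10 regions of 3 or 4 CpGs. In GENCODE M21, 11 of the 16 were intergenic, 4 intronic and 1, Fam63a, in a UTR. CpG density was 2.99 per 100 bases in the median DMR and 2.11 in the other regions, with a maximum among the 16 of 9.38 at Nploc4. Density was counted from the first to the last CpG of a region, which raises it in short regions. The median lengths were 184.5 bases in the DMRs and 566.5 in the other regions, so nothing is read from the density. The DMRs at Tex24 and Acads consisted entirely of repeat-masked sequence.

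Gene lists gave few regions, since most genes of lymph node stroma had none. Over all 1602 regions the median difference was -1.28 points, with 660 regions higher and 942 lower in pLN SPF. Stromal genes (26 listed) had 3 regions, all lower in SPF with a median of -6.07 points. The largest difference was at Cxcl13, the B cell chemokine, with 43.7%, 38.9% and 33.2% in SPF and 44.0% and 54.2% in GF. The Cxcl13 region came from the SPF location table alone, so its choice used these pLN SPF libraries. Limma called 0 regions in each list. Retinoic acid genes had 2 regions, both at Aldh1a2, which encodes a retinaldehyde dehydrogenase, with a median of -10.2 points; the larger difference, -12.4 points, came with 47.0%, 87.3% and 73.6% in SPF and 72.9% and 90.5% in GF and so with overlap. Innate sensing and interferon genes, the list closest to a microbial stimulus, had 2 regions out of 33 genes, both lower in SPF with a median of -4.15 points, the larger of them at Nfkb1, a subunit gene of NF-kappaB.

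Wnt, BMP and Notch genes had 12 regions, 3 higher and 9 lower in SPF, 4 of them without overlap and 3 at an unadjusted p under 0.05. These include Mib1, with the largest difference, and Ror1, both among the 16 DMRs chosen on this contrast. Of the other 10 regions, 2 (20%) had no overlap and 1 had an unadjusted p under 0.05, where 24.4% of the 1586 other regions had no overlap and 84 (5.30%) had such a p. The homeobox list, 26 chosen genes that leave out others such as Irx2 and En1, had 66 regions, 32 higher and 34 lower. Of these, 13 (19.7%) had no overlap and 4 (6.06%) had an unadjusted p under 0.05, close to these shares of the other regions. The largest difference within this list was at Meis2, with 69.4%, 56.0% and 56.0% in SPF and 46.4% and 42.3% in GF over 35 CpGs (limma adjusted p = 0.717). DNA methylation machinery had 1 region, an intergenic one 460457 bases from the TSS of Mbd2, a reader of methylated CpGs, and it was higher by 11.002 points in SPF with overlap. Endothelial markers had 4 regions, all lower in SPF with a median of -2.26 points, the largest difference being -5.07 points in an intergenic region nearest to Kdr. Haematopoietic markers and extracellular matrix and contractile genes had no region in the tables. Methylation of these loci does not measure expression, and a different mix of stromal subsets and a change within cells cannot be told apart in sorted bulk cells.

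Outside the 16, the largest differences without overlap among regions of at least 5 CpGs, of which 321 had no overlap, were higher in pLN SPF near Irx2 (23.3 points), Hapln1, Mdn1, Mapk4 and Gm13026, and lower near Lmcd1 (-21.3 points), Gdf6, 4930552P12Rik, Polq and Setbp1. The regions named after 4930552P12Rik and Polq lie 77945 and 48233 bases from those genes' TSS, in exons of Vti1a and Stxbp5l, and that named after Gm13026 is intergenic, 29587 bases away. Irx2 is an Iroquois homeobox gene that was not on the homeobox list. Its SPF libraries ranged from 36.3% to 66.1% against 33.1% and 22.6% in GF. Hapln1 links hyaluronan to proteoglycans and had 53.0%, 49.96% and 59.0% in SPF and 28.2% and 39.1% in GF. Mdn1, a ribosome assembly factor, had the tightest groups, with 52.2%, 52.5% and 51.8% in SPF and 30.9% and 33.0% in GF (limma adjusted p = 0.291). Gdf6, a BMP family ligand, had 33.1%, 33.8% and 33.4% in SPF and 59.3% and 45.8% in GF. All 10 came from a location table that used SPF or GF pLN libraries, and in mLN their housing differences lay between -6.81 and 6.78 points.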

How the data were processed

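Whole-genome bisulfite sequencing libraries of sorted stromal cells were trimmed, aligned to GRCm38 and called by the authors (FastQC 0.11.1, cutadapt 1.4 and BSMAP 2.4.3 per the submitters' processing notes). Per the methods of the study, CpGs needed 5 reads in 2 replicates of 1 condition. DMRs needed at least 3 CpGs, gaps of at most 300 bases and a mean difference of 25 points after smoothing with bsseq. Each CpG of a DMR also had to have a t-statistic beyond a low or high cutoff. The authors deposited unsmoothed methylation per CpG as a fraction from 0 to 1, and smoothed group means per DMR, also fractions. Columns of t-statistics, areaStat and mean differences in the DMR tables were not used. The reads behind each fraction are not given in the files, so depth is unknown and no counting interval is given; between 99.6% and 99.9% of 24182 CpGs had a value in each pLN library, and all 24182 positions are C of CG in GRCm38.

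Region values are means of the CpG percentages, from fractions times 100. DMRs of the other tables overlapping by at least 1 base were merged, and CpGs of a pLN housing DMR were counted there alone. Groups and replicate numbers came from the titles. No pair of pLN libraries had identical values at more than 13.6% of CpGs, so all were kept as separate. Regions and CpGs were fitted by lmFit and eBayes of limma 3.58.1 (R 4.3.3) with Benjamini-Hochberg adjustment over all regions or CpGs, after testing on simulated data. Single values were tested by exact permutation. Genes are the nearest genes of the authors' tables; annotation is GENCODE M21 through bedtools 2.31.1.

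The regions, gene lists and tests were chosen with earlier results of these data known. The genes named are every pLN housing DMR, the 5 regions in each direction with the largest pLN difference among those of at least 5 CpGs without overlap, and the region with the largest difference of each list; Lmna was named in addition, after its value was seen.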

Additional observations from a re-analysis of the deposited data

How the results depend on the processing

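Of 105 alternative values, none changed direction, but counts, percentages and shares cannot do so. Only the mean differences in pLN and mLN could, and the pLN direction came from the choice of the DMRs on these libraries. By their own limit, 92 values stayed and 13 moved further. The limit was the side of the threshold, the spread between replicates, the interval of a share or 1.5 times the count. The logit scale raised the regions called in pLN from 0 to 1, the Fam63a DMR. The mean pLN difference of the 16 DMRs, 14.9 points, was 18.4 with the median over CpGs, 17.7 for the 6 DMRs with at least 5 CpGs, 29.2 for the 1 DMR with an authors' difference of at least 0.35, and 13.98 without Fam63a (an alternative chosen after seeing the data). The count of DMRs without overlap, 10 of 16, was 8 of 16 with the median over CpGs. It was 4 of 6 and 1 of 1 under the 2 limits, the change there following from fewer DMRs. The share of other regions without overlap, 24.4%, was 18.8% with the median over CpGs, where the cause was not tested, and 35.8% to 55.2% with 1 pLN library left out, since fewer libraries overlap less. Leaving out single libraries gave 14.7 to 15.2 points for the mean pLN difference and 11 to 14 for the count without overlap. The housing share then ranged from 33.9% without pLN GF replicate 1 to 38.9% without pLN GF replicate 2. The mean mLN difference ranged from 0.0604 points without mLN GF replicate 2 to 4.24 points without mLN GF replicate 1. It was 0.721 points without mLN SPF replicate 1 and 12.2 points for Fam63a alone.

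The replicate numbers are not said to pair libraries, and the deviations of same-numbered pLN libraries had correlations of 0.0101 and 0.0296 over the other regions. With the replicate block, which left out SPF replicate 3 from the estimate because it has no GF partner, limma called 0 regions and 0 CpGs in pLN and 0 of the 16 DMRs in mLN. With 3 against 2 libraries no exact test can fall below 0.1, the depth is unknown, and DMRs of 3 or 4 CpGs are the least precise.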
